A study of Mus musculus with 8 samples.

Results

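The CXC chemokine ligands are 7 genes, Cxcl2, Cxcl9, Cxcl10, Cxcl12, Cxcl14, Cxcl16 and Pf4 (Cxcl4), named with earlier results of these data known. They were found among the 49315 genes of the count table through their Ensembl identifiers in the GENCODE M21 annotation, and all 7 were among the 13051 genes with enough counts to be tested. The other 8 mouse CXC ligand genes, Cxcl1, Cxcl3, Cxcl5, Cxcl11, Cxcl13, Cxcl15, Cxcl17 and Ppbp (Cxcl7), were looked up as well, and 1 of them, Ppbp, passed the same filter. The cells were bone marrow-derived macrophages (BMDMs), primary macrophages grown from femur and tibia marrow of C57BL/6 mice in medium with M-CSF, the growth factor of macrophages, at 10 ng/ml. Lipofection was used to bring in 25 nM of a gapmeR, an antisense oligonucleotide through which RNase H cuts the RNA it pairs with. In 4 libraries (replicates 9, 11, 13 and 15) the gapmeR was directed against the long non-coding RNA MAARS, and in 4 libraries (replicates 2, 5, 6 and 7) it was negative control #1. No untransfected cells were compared, so both groups share the transfection but differ in the sequence of the gapmeR. Effects of that sequence cannot be told apart from those of lower MAARS. The labels do not say whether replicates came from different mice. P-values therefore measure the spread between these libraries, which may be technical.

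Chemokines are small secreted proteins that direct the migration of leukocytes through G protein-coupled receptors, and the CXC class is named for a residue between its first pair of cysteines. The ligands with a Glu-Leu-Arg motif, among them Cxcl1, Cxcl2, Cxcl3 and Cxcl5, attract neutrophils through Cxcr2. Cxcl9, Cxcl10 and Cxcl11 are induced by interferons and attract activated T cells and NK cells through Cxcr3. Cxcl12 retains hematopoietic cells in the marrow through Cxcr4, Cxcl16 is a membrane-anchored ligand of Cxcr6 that also binds oxidized lipoprotein, and Pf4 is stored in platelet granules and is made by some macrophages as well.

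The transcript of MAARS itself, listed as Gm14461, was measured at 12.2, 15.1, 12.98 and 12.2 CPM in control gapmeR replicates 2, 5, 6 and 7 and at 7.71, 6.41, 7.31 and 5.85 CPM in MAARS gapmeR replicates 9, 11, 13 and 15, a log2 fold change of -0.95 ± 0.112 (SE; edgeR's quasi-likelihood test, adjusted p = 5.80e-05). CPM are library-scaled counts (TMM-normalized CPM), and every MAARS gapmeR library lay under every control library, as labelled. Between 19287279 and 20567123 counts fell on genes in the control libraries and between 20839671 and 24541205 in the MAARS gapmeR libraries, so every MAARS gapmeR library was the deeper one. Summed levels of 10 macrophage markers lay between 16320 and 19380 CPM in controls and between 18580 and 21890 CPM after MAARS gapmeR, most of it Lyz2, and none of these markers was at 0. The macrophage markers did not move one way. Of the 10, 5 (50.0%) were called higher, beside 21.3% of all genes tested, among them Lyz2 (log2 fold change 0.49) and Cd14 (0.74). Another 4 (40.0%) were called lower, beside 24.0% of all genes tested. These were Fcgr1 (-2.09), C1qa (-0.62), C1qb (-0.43) and Cd68 (-0.34). Of the other cell types examined, the summed B cell markers were at 1.89 to 3.98 CPM in controls and at 6.25 to 22.8 CPM after MAARS gapmeR, most of the latter Ighm. The endothelial sum was 16.4 to 21.2 CPM in controls and 7.35 to 8.66 CPM after MAARS gapmeR, most of it Kdr, and the dendritic cell sum, most of it Itgax, was 20.5 to 26.5 and 26.1 to 30.9 CPM. The T and NK cell sum, nearly all of it Cd4, was 66.0 to 85.7 CPM in controls and 40.8 to 51.6 CPM after MAARS gapmeR, with Cd3g and Gzma at 0. The part of these markers in the ligand results was not tested.

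Cxcl9, Cxcl10 and Cxcl16 were lower after MAARS gapmeR, Pf4 was higher, and Cxcl2, Cxcl12 and Cxcl14 did not pass the test. Of the 7 ligands, 3 (42.9%) were called lower, beside 24.0% of all genes tested, and 1 (14.3%) was called higher, beside 21.3% of all genes tested. Counts this small on 7 genes do not set the class apart from the rest of the transcriptome, and the sizes of the single changes carry the description. A fall of 1.5 or more on the log2 scale with an adjusted p under 0.05 was met by Cxcl10 and Cxcl9, 2 of 7, beside 1.69% of genes tested. Cxcl9, which is in both counts of lower ligands, passed the filter on low counts only through the control libraries, where it was high. All MAARS gapmeR libraries lay under all control libraries for Cxcl10 and Cxcl16 (2 of 7, beside 22.8% of genes tested) and above them for Pf4 (1 of 7, beside 19.3%). In bulk RNA, fewer cells of a type and less RNA per cell cannot be told apart, and this holds for each value given here. The calls over all genes depended on the scaling: 47.0% of them were higher with TMM factors and 60.4% with upper-quartile factors, while the direction of each of the 7 ligands was the same with both.

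**Figure D1:**
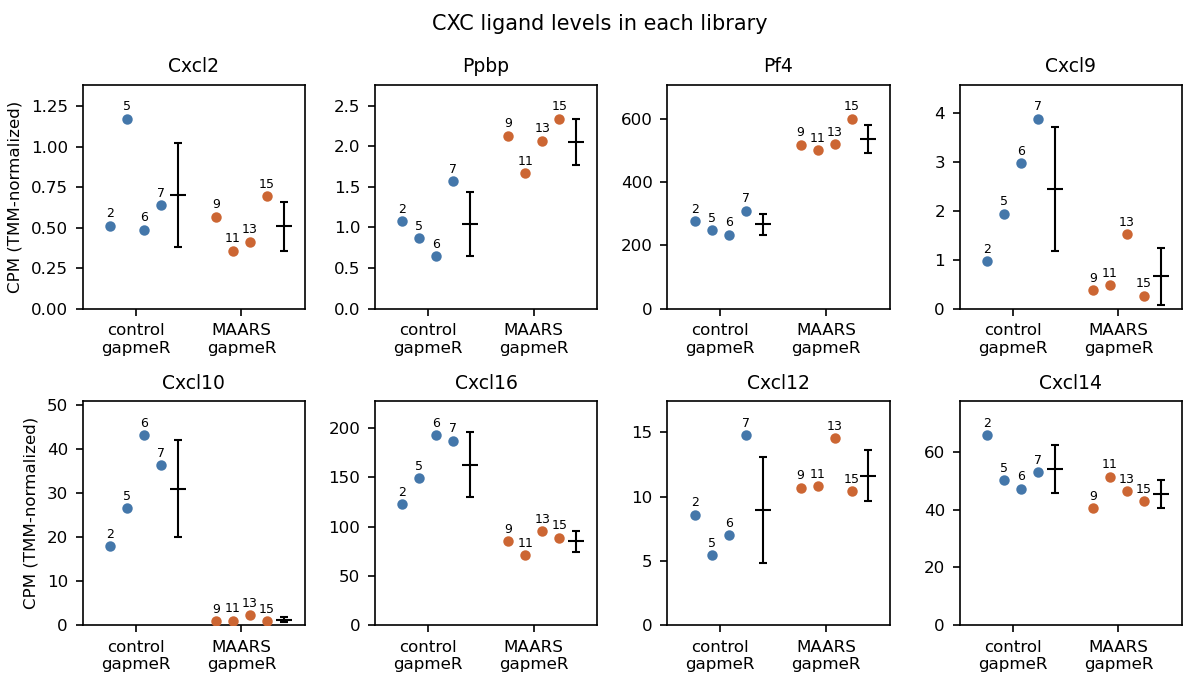
Level of the 7 CXC ligands and Ppbp in each library, in TMM-normalized CPM on linear axes that start at 0, with the replicate number above each point and the mean ± SD (n = 4) beside each group. The groups are apart for Ppbp, Pf4, Cxcl10 and Cxcl16 and overlap for Cxcl2, Cxcl9, Cxcl12 and Cxcl14.

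Cxcl9, Cxcl10 and Cxcl11 lie next to each other on the minus strand of chromosome 5, and Pf4 and Ppbp lie together on the plus strand of the same chromosome. Because the Cxcl9 and Cxcl10 pair fell and the Pf4 and Ppbp pair rose, the 250 bases before the RefSeq start of 1 gene of the rising pair and of both genes of the falling pair are shown, on build GRCm38.p6 and 5′ to 3′ along the gene. Capitals mark matches, on either strand, to the interferon-stimulated response element (ISRE, searched as GAAANNGAAA), to the gamma-activated site of STAT factors (GAS, searched as TTCNNNGAA) and to the NF-kappaB consensus. The windows are chr5:92348890-92349139 (minus strand) for Cxcl10, chr5:92328080-92328329 (minus strand) for Cxcl9 and chr5:90772185-90772434 (plus strand) for Pf4.
Cxcl10: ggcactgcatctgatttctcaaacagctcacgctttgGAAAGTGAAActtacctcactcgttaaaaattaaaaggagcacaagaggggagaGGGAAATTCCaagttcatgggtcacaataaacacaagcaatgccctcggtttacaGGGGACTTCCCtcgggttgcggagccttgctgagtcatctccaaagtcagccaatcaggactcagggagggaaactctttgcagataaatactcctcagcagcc
Cxcl9: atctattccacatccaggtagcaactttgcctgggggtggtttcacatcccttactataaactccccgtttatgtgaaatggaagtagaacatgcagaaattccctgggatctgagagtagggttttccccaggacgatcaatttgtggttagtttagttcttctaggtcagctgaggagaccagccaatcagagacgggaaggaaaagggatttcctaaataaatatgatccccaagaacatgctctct
Pf4: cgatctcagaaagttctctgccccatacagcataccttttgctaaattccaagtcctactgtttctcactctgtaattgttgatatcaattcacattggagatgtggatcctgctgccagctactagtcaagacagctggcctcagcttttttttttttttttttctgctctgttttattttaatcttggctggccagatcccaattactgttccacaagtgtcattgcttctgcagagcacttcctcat

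The Cxcl10 window held 1 ISRE match, 213 to 204 bases before the start, and NF-kappaB matches in 2 stretches, at 159 to 150 and at 104 to 94 bases before the start, the latter made of overlapping matches on both strands. Among 32851 windows of the same length from 27025 genes, 2.98% held an ISRE match, 7.02% a GAS match and 7.25% an NF-kappaB match. The windows of Cxcl9, Pf4, Ppbp and Cxcl12 held no exact match to any of the 3 motifs, and near matches were not searched. That of Cxcl2 held 1 NF-kappaB stretch at 97 to 87 bases before the start. Cxcl14 had 1 ISRE match and 1 GAS match in its window. Of the 15 ligands looked up, 11 had a RefSeq promoter entry, and Cxcl5, Cxcl11, Cxcl16 and Cxcl17 were not among them. A match describes the letters of a window and not the binding of a factor.

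Cxcl10 (ENSMUSG00000034855, chr5:92346638-92348889, minus strand; gene positions are on GRCm38), the interferon-inducible Cxcr3 ligand also known as IP-10, showed the largest change of the 7. It was measured at 17.9, 26.6, 43.1 and 36.3 CPM in control replicates 2, 5, 6 and 7, from 349 to 797 counts per library. After MAARS gapmeR it was at 0.899, 0.955, 2.21 and 0.867 CPM in replicates 9, 11, 13 and 15, from 19 to 48 counts. The groups were far apart, with the lowest control library above the highest MAARS gapmeR library, which was replicate 13. Group means ± SD (n = 4 each) were 31.0 ± 11.1 CPM in controls and 1.23 ± 0.651 CPM after MAARS gapmeR, and edgeR put the fall at 25.2-fold, a log2 fold change of -4.66 ± 0.337 (SE; 95% interval -5.40 to -3.92; quasi-likelihood test, adjusted p = 5.27e-06). A two-sided exact permutation test of the log2 CPM gave p = 0.0286, the smallest that 4 against 4 libraries can give. Of the exonic bases of Cxcl10, 5.91% overlap Art3 on the opposite strand, and the strand setting of the counting is not given in the sources used here.

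Cxcl9 (ENSMUSG00000029417, chr5:92321347-92328079, minus strand), the neighbouring Cxcr3 ligand induced mainly by interferon gamma, was far less abundant. Control replicates 2, 5, 6 and 7 held 0.973, 1.94, 2.98 and 3.88 CPM, from 19, 38, 55 and 79 counts. MAARS gapmeR replicates 9, 11, 13 and 15 held 0.378, 0.478, 1.52 and 0.260 CPM, from 8, 12, 33 and 6 counts. The groups overlapped, because MAARS gapmeR replicate 13 was above control replicate 2. The filter asked for about 0.483 CPM in 4 libraries, which all controls met and MAARS gapmeR replicates 9 and 15 did not. Cxcl9 was thus tested only through the group where it was high. The mean was 2.44 ± 1.26 CPM in controls and 0.658 ± 0.579 CPM after MAARS gapmeR (SD over 4 libraries each), and edgeR fitted a 3.73-fold fall, a log2 fold change of -1.90 ± 0.523 (SE; 95% interval -3.05 to -0.75; edgeR, adjusted p = 0.0120), while the exact permutation test of the single gene gave p = 0.0571. Without MAARS gapmeR replicate 13 the log2 fold change was -2.69 (edgeR, adjusted p = 0.00172).

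Cxcl10 fell more than Cxcl9. Per kb of exon, the ratio of Cxcl10 to Cxcl9 was 12.5 to 24.6 in control libraries and 1.95 to 4.46 in MAARS gapmeR libraries, a log2 difference of -2.63 (two-sided exact permutation test, p = 0.0286, adjusted p = 0.0381 over 4 ligand ratios). The gene next to Cxcl9 on its other side, Sdad1, was at 20.2 ± 1.64 and 21.4 ± 0.881 CPM (log2 fold change 0.08, edgeR adjusted p = 0.377). Nup54, the nearest tested gene beyond Cxcl10, fell by 0.50 on the log2 scale (edgeR, adjusted p = 0.000273).

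Cxcl11, the third ligand of Cxcr3, lies beside Cxcl10 at chr5:92359544-92365485 and was below the filter. It is annotated as a polymorphic pseudogene, which some mouse strains do not translate into a full protein. Its counts are RNA and do not show that these C57BL/6 cells made a working ligand. It had 5, 7, 42 and 21 counts in control replicates 2, 5, 6 and 7 and no count in any MAARS gapmeR library. Against a floor of 3 counts over the whole MAARS gapmeR group, its summed level of 75 counts in the controls was at least 27.9-fold lower after MAARS gapmeR. Control replicate 6 held 42 of these counts, and without it the bound was at least 16.2-fold. In the fit without a filter on low counts the adjusted p was 1.59e-06 (edgeR), and 41.7% of its exonic bases overlap Gm2673 on the opposite strand.

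Cxcl16 (ENSMUSG00000018920, chr11:70453983-70459984, minus strand), the membrane-anchored chemokine and scavenger receptor for oxidized lipoprotein, fell by a smaller factor from a higher level. Controls held 122.7, 149.3, 192.8 and 187.1 CPM in replicates 2, 5, 6 and 7, and MAARS gapmeR replicates 9, 11, 13 and 15 held 85.5, 70.7, 95.4 and 88.7 CPM. The groups did not overlap. Group means ± SD (n = 4 each) were 163.0 ± 33.1 and 85.1 ± 10.4 CPM, 1.92-fold apart, which gave a log2 fold change of -0.94 ± 0.134 (SE; 95% interval -1.23 to -0.64; edgeR, adjusted p = 0.000212). Zmynd15, which overlaps 18.3% of the exonic bases of Cxcl16 on the opposite strand, fell by 0.74 on the log2 scale (edgeR, adjusted p = 0.00742). Reads within the stretch that the 2 genes share cannot be told apart without the strand setting. Med11, which lies 256 bases away on the other side, had a log2 fold change of -0.11 (edgeR, adjusted p = 0.292). The ratio of Cxcl10 to Cxcl16 per kb was 0.195 to 0.300 in controls and 0.0131 to 0.0310 after MAARS gapmeR, so Cxcl10 fell more than Cxcl16 as well (exact permutation test, p = 0.0286, adjusted p = 0.0381).

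The lowest control library and the highest MAARS gapmeR library were the same for these ligands and for Irf7, a transcription factor of the interferon route. Control replicate 2 was the lowest control library for Cxcl9, Cxcl10, Cxcl11 and Cxcl16, and it was also the lowest for Irf7 (1047 CPM, others 1200 to 1603 CPM). MAARS gapmeR replicate 13 was the highest of its group for Cxcl9, Cxcl10, Cxcl16 and Irf7 (237.7 CPM). The order of the other MAARS gapmeR libraries differed: replicate 9 was lowest for Irf7 (59.3 CPM), replicate 15 for Cxcl9 and Cxcl10, and replicate 11 for Cxcl16. This order is a description over 4 libraries a group, and its relation to the transfection or the cultures was not tested.

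**Figure D2:**
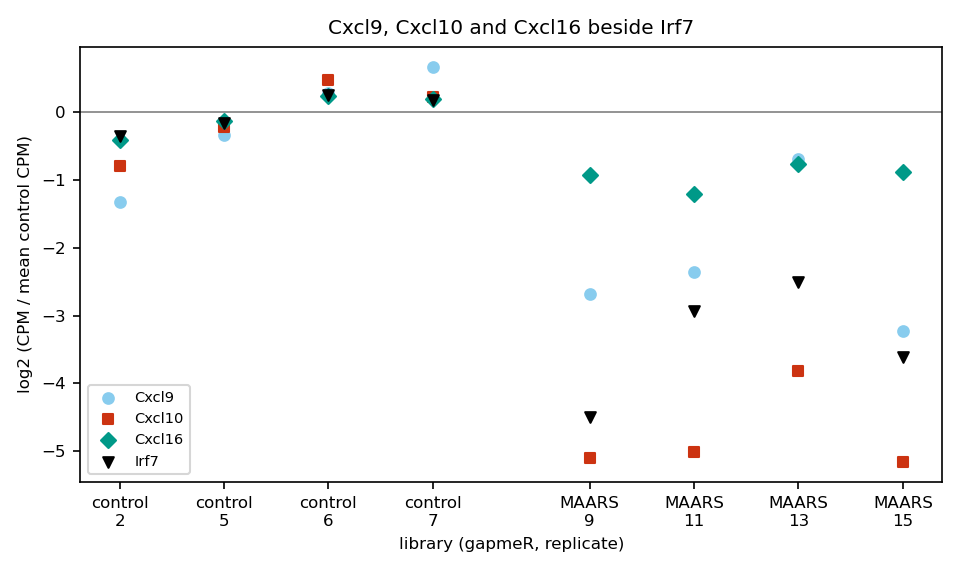
Level of Cxcl9, Cxcl10, Cxcl16 and Irf7 in each library, as the log2 ratio of CPM to the mean CPM of the 4 control libraries, so that 0 is the control mean. Cxcl10 lies lowest in all 4 MAARS gapmeR libraries and Cxcl16 stays closest to the control mean in replicates 9, 11 and 15, while replicate 13 is the highest MAARS gapmeR library for each of the 4 genes.

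Of 16 genes on the interferon route to these ligands, 10 (62.5%) fell and 2 (12.5%) rose, beside 24.0% and 21.3% of all genes tested, with a median log2 fold change of -0.22 (0.01 over all genes tested). Irf7, a transcription factor amplified by type I interferon, fell by 3.20 on the log2 scale (edgeR, adjusted p = 3.05e-05), Stat2 fell by 1.52 (1.12e-05) and Irf5 fell by 0.70 (8.99e-06). The receptor chain Ifnar1 rose by 0.29 (edgeR, adjusted p = 0.000649) and Irf3 rose by 0.16 (0.0334), a call that 8 of 17 alternatives lost, so the route did not move as one. Of 16 genes on the NF-kappaB route, 10 (62.5%) fell and none rose, beside the same 24.0% and 21.3%, among them the adaptor Myd88 (log2 fold change -0.87), the receptor Tlr2 (-0.71) and the feedback inhibitor Tnfaip3 (-0.65). The call of Rel, another subunit of NF-kappaB (-0.14), was lost in 10 of 17 alternatives. Rela, the main NF-kappaB subunit, had a log2 fold change of -0.10 and did not pass the test (edgeR, adjusted p = 0.187).

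Pf4 (ENSMUSG00000029373, chr5:90772435-90773383, plus strand), the heparin-binding platelet factor 4, was the one of the 7 called higher and was the most abundant ligand per kb of exon in both groups. Control replicates 2, 5, 6 and 7 held 275.5, 248.3, 233.6 and 308.9 CPM, and MAARS gapmeR replicates 9, 11, 13 and 15 held 517.9, 500.2, 518.7 and 599.6 CPM. The groups did not overlap, and the gap between them was wider than the range within either. The mean rose 2.00-fold, from 266.6 ± 33.1 to 534.1 ± 44.5 CPM (SD over 4 libraries each), at a log2 fold change of 1.00 ± 0.0867 (SE; 95% interval 0.81 to 1.19; edgeR, adjusted p = 8.38e-06). The exact permutation test gave p = 0.0286.

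Ppbp, which encodes the platelet basic protein (Cxcl7), ends 2372 bases before Pf4 and changed by nearly the same factor at a far lower level. It was at 1.08, 0.866, 0.649 and 1.57 CPM in control replicates 2, 5, 6 and 7 and at 2.13, 1.67, 2.07 and 2.34 CPM in MAARS gapmeR replicates 9, 11, 13 and 15. The log2 fold change was 0.96 ± 0.260 (SE; edgeR, adjusted p = 0.0106), and the groups did not overlap. The ratio of Pf4 to Ppbp per kb was 295.2 to 540.7 in controls and 365.5 to 449.6 after MAARS gapmeR, a log2 difference of -0.04 (exact permutation test, p = 0.886). How reads that fit both paralogs were counted is not given in the sources used here. The ratio of Pf4 to Cxcl16, by contrast, was 5.08 to 9.41 in controls and 22.8 to 29.6 after MAARS gapmeR (exact permutation test, p = 0.0286, adjusted p = 0.0381). Every MAARS gapmeR library was above every control for Pf4 and below every control for Cxcl16. The p of this ratio was therefore fixed beforehand and adds no support to the single changes.

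Both Pf4 and Ppbp are classical products of megakaryocytes and platelets. The 10 megakaryocyte and platelet markers summed to 6.67 to 9.77 CPM in controls and to 6.80 to 10.1 CPM after MAARS gapmeR. Of the 4 that were tested none was called, beside 21.3% of all genes tested called higher and 24.0% called lower. The largest single part of the sum was Treml1, at a mean of 3.52 CPM in controls and 4.21 CPM after MAARS gapmeR. The marker sums of the groups overlapped and the Pf4 levels did not, and Pf4 alone was at 233.6 CPM or more in every library. Within groups the highest library was shared: control replicate 7 and MAARS gapmeR replicate 15 were highest for Pf4, for Ppbp and for the marker sum. The full order of the libraries was not the same for all of them. The part of the marker-bearing cells in these levels was not tested.

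Cxcl2 (ENSMUSG00000058427, chr5:90903871-90905938, plus strand), the neutrophil attractant also called MIP-2, was close to the limit of the filter. Control replicates 2, 5, 6 and 7 held 0.512, 1.17, 0.487 and 0.638 CPM and MAARS gapmeR replicates 9, 11, 13 and 15 held 0.568, 0.358, 0.414 and 0.693 CPM, from 9 to 23 counts per library. The groups overlapped, and control replicate 5 was the highest library. The log2 fold change was -0.47 with a 95% interval of -1.27 to 0.32 (edgeR, adjusted p = 0.312), which leaves room for a fall by more than the Cxcl16 change and for a small rise. Cxcl2 shares stretches of sequence with Cxcl1 and Cxcl3, so its few counts also carry the uncertainty of how shared reads were treated.

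Of the other ligands with a Glu-Leu-Arg motif, Ppbp passed the filter, while Cxcl1, Cxcl3, Cxcl5 and Cxcl15 were below it. Cxcl1 had 2, 7, 3 and 2 counts in control replicates 2, 5, 6 and 7 and 5, 16, 13 and 8 counts in MAARS gapmeR replicates 9, 11, 13 and 15 (edgeR without the filter, log2 fold change 1.32, adjusted p = 0.0875). Cxcl5 had 3, 5, 3 and 3 counts in the controls and 2, 17, 7 and 14 counts after MAARS gapmeR (edgeR without the filter, log2 fold change 1.24, adjusted p = 0.130). Cxcl3 and Cxcl15 had at most 3 counts in any library, Cxcl17, a mucosal chemokine, had 1 count in 1 library, and Cxcl13, the B cell attractant that acts through Cxcr5, had none.

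Cxcl12 (ENSMUSG00000061353, chr6:117168535-117181367, plus strand), known as SDF-1 and made mainly by stromal cells of the marrow, was at 8.60, 5.45, 6.98 and 14.8 CPM in control replicates 2, 5, 6 and 7. MAARS gapmeR replicates 9, 11, 13 and 15 held 10.7, 10.8, 14.6 and 10.4 CPM. The groups overlapped because of control replicate 7, which was above all MAARS gapmeR libraries. The mean was 8.95 ± 4.09 CPM in controls and 11.6 ± 1.97 CPM after MAARS gapmeR (SD over 4 libraries each), for a log2 fold change of 0.37 and a 95% interval of -0.18 to 0.92 (edgeR, adjusted p = 0.249). Cxcl12 was called higher without control replicate 7, at 0.73 (edgeR, adjusted p = 0.00678), and over all 8 libraries with 1 surrogate variable, at 0.46 (edgeR, adjusted p = 0.0173).

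The same libraries were the highest for stromal markers. The 10 fibroblast and stromal markers summed to 685.0, 504.1, 823.1 and 1152 CPM in control replicates 2, 5, 6 and 7 and to 780.2, 1003, 1353 and 836.1 CPM in MAARS gapmeR replicates 9, 11, 13 and 15. Most of this was collagen, Col1a1 and Col1a2. Of the 7 markers tested none was called, beside 21.3% of all genes tested called higher and 24.0% called lower. Control replicate 7 and MAARS gapmeR replicate 13 had the highest sum of their group, as they had the highest Cxcl12. They were also the highest for the 10 markers of neutrophils and granulocyte precursors, at 300.6 CPM (other controls 102.2 to 180.9) and 168.9 CPM (other MAARS gapmeR libraries 105.7 to 140.7). All 8 of those markers tested had a log2 fold change below 0 (median -0.48), as had 6393 of the 13051 genes tested. None of the 8 was called, beside the same 21.3% and 24.0%. None of the 10 stromal markers was at 0 in all libraries, and the part of either list in the Cxcl12 level was not tested.

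**Figure D3:**
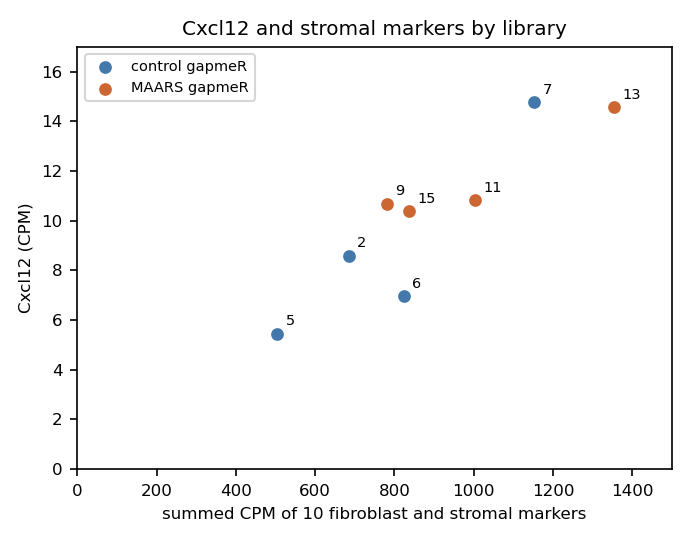
Cxcl12 (vertical axis, CPM) against the summed CPM of 10 fibroblast and stromal markers (horizontal axis) in each of the 8 libraries, with the replicate number beside each point and both axes from 0. Control replicate 7 and MAARS gapmeR replicate 13, at 14.8 and 14.6 CPM of Cxcl12, are the libraries with the highest marker sums, 1152 and 1353 CPM.

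Cxcl14 (ENSMUSG00000021508, chr13:56288643-56296551, minus strand), a chemokine of epithelia and stroma whose receptor is debated, was at 65.7, 50.2, 47.2 and 53.0 CPM in control replicates 2, 5, 6 and 7. MAARS gapmeR replicates 9, 11, 13 and 15 held 40.4, 51.4, 46.5 and 42.9 CPM. The groups overlapped, and control replicate 2 was the highest library. The log2 fold change was -0.25 with a 95% interval of -0.48 to -0.03 (edgeR, adjusted p = 0.0640). The adjusted p was 0.0321 without control replicate 6, 0.0336 without MAARS gapmeR replicate 11 and 0.0168 over all 8 libraries without the filter on low counts (edgeR), while without control replicate 2 the log2 fold change was -0.14 (adjusted p = 0.189). The nearest tested genes on either side of Cxcl14, Tifab and Fbxl21, had log2 fold changes of -0.16 and -0.61 (edgeR, adjusted p = 0.337 and 0.0576).

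**Figure D4:**
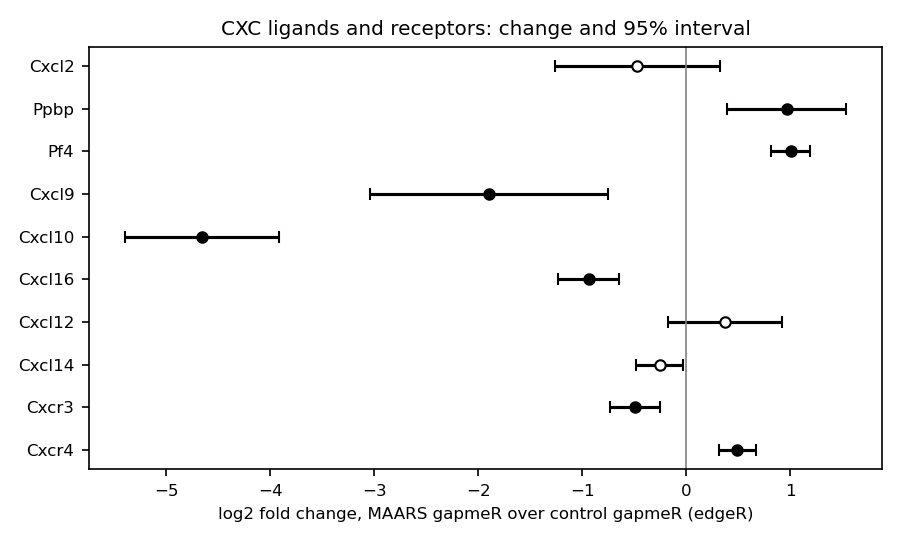
Log2 fold change of the 7 CXC ligands, Ppbp and the receptors Cxcr3 and Cxcr4 (MAARS gapmeR over control gapmeR, edgeR), with 95% intervals as bars. Filled points passed the test (adjusted p under 0.05) and open points did not, and the values run from -4.66 for Cxcl10 to 1.00 for Pf4.

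The makeup of the summed CXC ligand RNA changed with these shifts. Per kb of exon, on which levels of different genes can be compared, the order in controls was Pf4 (369.7 ± 45.9 CPM per kb), Cxcl16 (54.0 ± 10.9), Cxcl14 (29.6 ± 4.46) and Cxcl10 (13.8 ± 4.91), and neighbours in this order did not overlap. Below them Cxcl12, Ppbp, Cxcl9 and Cxcl2, from 1.10 down to 0.340 CPM per kb, overlapped each with the next. After MAARS gapmeR the order was Pf4 (740.8 ± 61.7), Cxcl16 (28.2 ± 3.44) and Cxcl14 (24.8 ± 2.62), of which Cxcl16 and Cxcl14 overlapped, then Ppbp and Cxcl12 (1.90 and 1.42 CPM per kb), and Cxcl10 came only after these at 0.547 CPM per kb. The 15 ligand genes together summed to 436.1 to 540.7 CPM per kb in controls and 749.6 to 889.2 CPM per kb after MAARS gapmeR. Pf4 made up 74.3% to 81.4% of this sum in controls and 92.0% to 93.5% after MAARS gapmeR, and Cxcl10 made up 1.69% to 4.39% and 0.0433% to 0.125%.

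**Figure D5:**
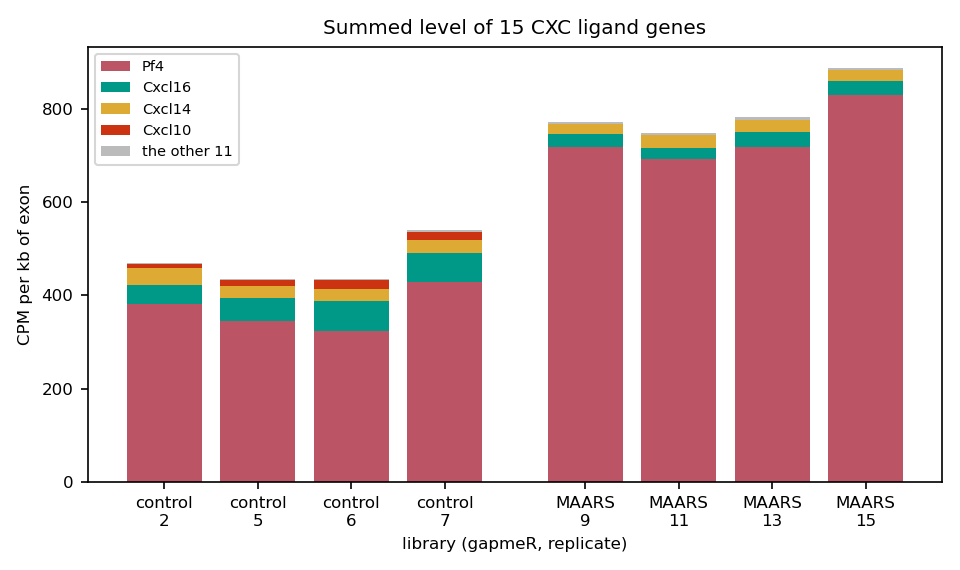
Summed level of the 15 CXC ligand genes in each library, in CPM per kb of exon, as stacked bars from 0 with Pf4, Cxcl16, Cxcl14, Cxcl10 and the other 11 genes. The sum lies at 436.1 to 540.7 in the 4 control libraries and at 749.6 to 889.2 in the 4 MAARS gapmeR libraries, and Pf4 alone rises from a mean of 369.7 to 740.8, by more than the mean of the sum, which goes from 470.7 to 798.6.

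Among 8 receptors of CXC ligands, only Cxcr3 and Cxcr4 passed the filter. Cxcr3, the receptor of Cxcl9, Cxcl10 and Cxcl11, was at 11.3, 10.9, 10.6 and 9.92 CPM in control replicates 2, 5, 6 and 7 and at 8.80, 6.37, 7.22 and 7.93 CPM in MAARS gapmeR replicates 9, 11, 13 and 15. It fell by 0.49 on the log2 scale (edgeR, adjusted p = 0.00339), and the groups did not overlap. Cxcr4, the receptor of Cxcl12, was at 87.0, 86.6, 87.2 and 90.0 CPM in the controls and at 126.9, 99.9, 128.4 and 137.8 CPM after MAARS gapmeR. It rose by 0.49 (edgeR, adjusted p = 0.000608), also without overlap. The levels of Cxcr2 and Cxcr6, receptors of the neutrophil attractants and of Cxcl16, were at or below 0.884 CPM in every library.

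Proteases release or trim several of these ligands. Adam10, the main sheddase of membrane Cxcl16, was at 226.7 ± 16.1 and 261.2 ± 11.4 CPM (SD, n = 4 each) and rose by 0.20 on the log2 scale (edgeR, adjusted p = 0.0132), while Adam17 had a log2 fold change of 0.10 (edgeR, adjusted p = 0.292). Of 9 proteases tested from a list of 10, 4 (44.4%) were called higher and none lower, beside 21.3% and 24.0% of all genes tested. The median log2 fold change was 0.14. Besides Adam10 these were Mmp8, a collagenase that also cuts chemokines (0.67), the convertase Furin (0.14) and the macrophage elastase Mmp12 (0.28), and of 17 alternatives 4 lost the call of Furin and 6 that of Mmp12. Mmp14 (-0.43) and Anpep (-0.17) were not called in the main fit but gained a call as lower in some alternatives. For Mmp14 these were 3 with a library left out and 2 others, and for Anpep 1 and 2. Mmp2 (0.29) gained a call as higher in 1 and 1. Dpp4, which inactivates Cxcl10 and Cxcl12 by trimming their ends, was below the filter at 0.516 ± 0.265 and 0.130 ± 0.0426 CPM. Its groups did not overlap.

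Many chemokine mRNAs carry AU-rich elements in their 3′ untranslated regions (3′ UTRs), at which binding proteins such as HuR (Elavl1) and Zfp36 act on stability. The pentamer ATTTA, counted on the longest annotated 3′ UTR of each gene, occurred 11 times in Cxcl2 (7.36 per kb), 3 times each in Cxcl10 (3.01 per kb) and Cxcl9 (1.22 per kb), 2 times in Cxcl16 (1.41 per kb) and 4 times in Cxcl12 (0.771 per kb). Cxcl14 held none in 1149 bases, and the short 3′ UTR of Pf4, of 123 bases, held 1 (8.13 per kb). Over the 11776 tested genes with a 3′ UTR the median was 1.32 per kb and the upper decile began at 4.08 per kb. Cxcl2 and Pf4 were above that decile, Cxcl10 and Cxcl16 lay between the median and the decile, and Cxcl9, Cxcl12 and Cxcl14 lay under the median. Elavl1 was at 46.9 ± 0.831 and 48.0 ± 2.40 CPM (log2 fold change 0.03, edgeR adjusted p = 0.614). Of 9 listed genes for mRNA decay and stability, 3 (33.3%) rose and 4 (44.4%) fell, beside 21.3% and 24.0% of all genes tested. Among them were Khsrp (0.30), the decay factor Zfp36 (-0.38) and the RNase Zc3h12a (-0.65). The calls of Tial1 (0.12), Hnrnpd (-0.14) and Tia1 (-0.20) were lost in 10, 7 and 6 of 17 alternatives.

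The CC chemokines form the sister class, and several of them attract monocytes. Of 11 CC ligands tested from a list of 18, 9 (81.8%) fell and 1 (9.09%) rose, beside 24.0% and 21.3% of all genes tested, with a median log2 fold change of -1.43, compared with -0.47 over the 7 CXC ligands. The log2 fold changes of Ccl12, Ccl4, Ccl7 and Ccl5 were -3.04, -1.43, -2.98 and -3.50 (edgeR, adjusted p = 6.07e-06, 3.70e-06, 1.19e-05 and 0.000292), and Ccl24, an eosinophil attractant, rose by 1.82 (edgeR, adjusted p = 0.00226). Ccl24 had only 3 to 8 counts per control library and 17 to 33 after MAARS gapmeR. It passed the filter on low counts only through the MAARS gapmeR group, where it was high. The difference between the classes was not tested.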

How the data were processed

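RNA-Seq of ribodepleted total RNA from 4 control gapmeR and 4 MAARS gapmeR BMDM libraries was used, grouped by their labels. The submitters' processing notes name Trimmomatic 0.36, STAR 2.5.2b and featureCounts of Subread 1.5.2 on GRCm38 (mm10), and the study's methods name Ensembl transcripts. The deposited values are the authors' raw counts per gene, not normalized. The strand setting and the treatment of reads that map to several places are not given in the sources used here. All per-sample columns were used.

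The filter on low counts was filterByExpr (at least 10 counts, 15 in total). The remaining genes were scaled with TMM and compared with edgeR 4.0.16 (glmQLFit, glmQLFTest; R 4.3.3), with Benjamini-Hochberg adjustment over 13051 genes and calls at an adjusted p under 0.05. SEs were derived from the F statistic. CPM per kb used the union of annotated exons. GENCODE M21 (GRCm38) gave the gene positions and held 99.47% of the identifiers, and RefSeq (GRCm38.p6) the promoter windows. Single values were compared by two-sided exact permutation tests over the 70 splits of 8 libraries, and the 4 ligand ratios were chosen after the levels were seen. Within a group, the chi-square between libraries was 4.02 to 14.1 per gene, so none was a copy of another. Alternatives were RLE or upper-quartile factors, DESeq2 1.42.0, limma-voom 3.58.1, a robust prior, no filter, a filter on a mean of 10 counts, 1 surrogate variable (sva 3.50.0), counts thinned to the smallest total, each library left out, and calls that also needed a log2 change of 1.5 in size. The Cxcl11 bound with each library left out was added after the data were seen.

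The members and all gene and marker lists were chosen with earlier results of these data known. The genes named are the 15 ligands, Gm14461, the tested receptors, for each pathway list the 3 genes of smallest p and others counted by name, the nearest tested gene on either side of each member, and the 3 genes with the closest profile. Further genes were named after their values were seen: Ifnar1, Irf3, Rela, Rel, Tial1, Hnrnpd, Tia1, Adam17, Dpp4, Elavl1, Ccl5, Ccl24, Cxcr2, Cxcr6 and those of the closing section's paragraphs on single libraries and alternatives.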

Additional observations from a re-analysis of the deposited data

Results flagged for a closer look

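Of 144 groups of 4 libraries over 72 genes, 7 held a library whose gap to the nearest of the others passed Dixon's 95% critical value, and chance sets apart about 1 in 20 groups. Among the ligands, MAARS gapmeR replicate 13 stood above its group for Cxcl10 (2.21 CPM, others 0.867 to 0.955) and for Cxcl12 (14.6 CPM, others 10.4 to 10.8). Control replicate 7 stood above the other controls for Cxcr4 (90.0 CPM, others 86.6 to 87.2) and below them for Adam10 (202.5 CPM, others 234.1 to 235.6). Control replicate 2 was low for Irf2 (66.8 CPM, others 77.6 to 79.5) and high for Ccl25 (4.56 CPM, others 3.19 to 3.41), and MAARS gapmeR replicate 9 was low for Ccl12 (1.28 CPM, others 2.34 to 2.39). The cause of these values was not tested.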

How the results depend on the processing

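Over the alternatives run, Cxcl9, Cxcl10 and Cxcl16 stayed lower and Pf4 and Ppbp higher, each with an adjusted p under 0.05. The log2 fold change ranged from -5.08 to -4.46 for Cxcl10, from -2.69 to -1.58 for Cxcl9, from -1.05 to -0.85 for Cxcl16 and from 0.94 to 1.08 for Pf4. Of 208 comparisons of the main results with an alternative, 198 were rated the same. For a fold change this meant the same direction and the same side of the threshold. For a count of calls it meant a change of at most 1.5-fold. Under this rule the count of members called lower, 3 in the main fit, ran from 2 to 4. Genes called higher, 2782 in the main fit, reached 3622. The exceptions were Cxcl12, called with 1 surrogate variable (0.46) and without control gapmeR replicate 7 (leave-one-out range 0.19 to 0.73), and Cxcl14, called without the filter (-0.26) and without control gapmeR replicate 6 or MAARS gapmeR replicate 11 (leave-one-out range -0.32 to -0.14); the cause was not tested. With these, the count of members called higher became 2 with 1 surrogate variable and 1 to 2 with a library left out. Calls that also needed a log2 change of 1.5 in size left 67 genes higher, 220 lower, and 0 members higher. Of 1096 comparisons for single named genes, 1006 were the same, 64 lost the call, 19 gained it and 7 reversed. The reversed ones were not called: Mmp9 at 0.0122 with upper-quartile factors, 0.00153 with limma-voom, 0.00364 with 1 surrogate variable and -0.20 to 0.18 with a library left out, and Ccl25 at -0.0494 without MAARS gapmeR replicate 15 (highest 0.22 with a library left out). Jak1, Rel and Tial1 were near the threshold and lost their call in 9, 10 and 10 of 17 alternatives. No paired analysis was run, because the labels give no pairing and the groups share no replicate number. Whether the cultures were paired is not known. Cxcl2 rested on 9 to 23 counts in a library.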

Other observations

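The genes whose profile over the 8 libraries lay closest to that of a ligand were found by the root-mean-square distance of centred log2 CPM. For Cxcl10 they were Ifi208 (distance 0.199, log2 fold change -4.33), Acod1 (0.335, -5.08) and Ly6a (0.395, -4.08), and 1 gene lay within a distance of 0.25. For Cxcl9 no gene lay that close, and the nearest were Gm5970 (0.325), A530032D15Rik (0.393) and Gm45418 (0.423). Dusp28, AB124611 and Csrnp1 were nearest to Cxcl16 (0.0761, 0.0902 and 0.0978, with 328 genes within 0.25), and Prkar2b, Tle2 and Pfn2 to Pf4 (0.110, 0.119 and 0.137, with 254 genes). Trim66, Cemip and Igfbp7 were nearest to Cxcl12 (0.110, 0.120 and 0.131, with 123 genes) and none of the 3 was called. For Cxcl14, 5759 genes lay within 0.25, led by Gle1, Sms and Pex26, so its profile was shared by a large part of the genes tested. Gm9949, Usp27x and Gm26631 were nearest to Cxcl2 (0.173, 0.271 and 0.272, with 1 gene within 0.25). With 8 libraries in 2 groups, a short distance mostly reflects a like difference between the groups.

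Of the remaining neighbours, Mthfd2l, the nearest tested gene beyond Cxcl2, rose by 0.51 on the log2 scale (edgeR, adjusted p = 0.00384). Rassf4 and Zfp637, on either side of Cxcl12, had log2 fold changes of 0.09 and -0.05 (edgeR, adjusted p = 0.596 and 0.684).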
